A study of Mus musculus with 14 samples.

Results

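NMDA receptor subunits and transporters of the SLC1 family were followed in Ocy454 cells, a mouse line with osteocyte-like properties. The 10 genes are *Grin1*, *Grin2a*, *Grin2b*, *Grin2c*, *Grin2d* and *Grin3b* (6 receptor subunits) and *Slc1a1*, *Slc1a3*, *Slc1a4* and *Slc1a5* (4 transporters), out of 39179 genes listed for the differentiation experiment and 35886 for the sorting experiment. They were chosen by name because *Grin2c* is among the largest rises in CD61 high cells in these data. Values of these genes from the sort are therefore given as a description, with no test. The differentiation time course was tested; its values were not part of the rule, although its earlier results were known when the genes were chosen.

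NMDA receptors are glutamate-gated, calcium-permeable channels in which the obligatory subunit GluN1, encoded by *Grin1*, assembles with GluN2 subunits (*Grin2a* to *Grin2d*) and in some receptors with GluN3 subunits such as that of *Grin3b*. *Slc1a1* and *Slc1a3* encode high-affinity transporters that clear glutamate and aspartate from outside the cell, and *Slc1a4* and *Slc1a5* encode relatives that exchange neutral amino acids, serine and alanine for the former and glutamine for the latter. Best known from synapses and glia, glutamate receptors and transporters have also been described in cells of bone.

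Ocy454 cells are conditionally immortalized, grow at 33 °C and begin to differentiate when moved to 37 °C. Poly(A) RNA was sequenced after 1, 7, 10 and 14 days at 37 °C with 2 biologic replicates per day (8 libraries), and from live cells sorted after 17 days into the 10% with the highest and the 10% with the lowest surface signal for CD61, the integrin encoded by *Itgb3* (CD61 high and CD61 low, 3 libraries each). All 14 libraries come from this line, immortalized with a temperature-sensitive large T antigen, the labels name no drug or gene perturbation, and no culture kept at 33 °C was among them. The labels number the sorted libraries but do not say which of them came from the same culture.

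The differentiation libraries hold 27518605 to 34311238 reads counted on genes, and the sorted libraries 18815602 to 19220064 estimated counts. *Itgb3* rose with the gate, from 5.65 ± 0.41 to 111 ± 16.4 CPM (counts scaled to a common library total) after TMM scaling (SD, n = 3). Of 8 neuron markers, 6 (*Rbfox3*, *Snap25*, *Stmn2*, *Nefl*, *Nefm* and *Gad1*) were at 0 in every differentiation library and the list summed to 0.236 to 0.516 CPM. In the sorted cells it summed to 0.838 to 2.66 CPM, most of it *Elavl3*. That gene had 41, 17 and 48 estimated counts in CD61 low and 16, 27.7 and 17 in CD61 high. *Rbfox3* had 0, 2 and 2 in CD61 low, and *Syt1* had 0, 1 and 0. The 4 astrocyte markers summed to at most 1.13 CPM in any library. The 9 osteocyte and late osteoblast markers summed to 17862 to 41839 CPM over all libraries, nearly all of it *Col1a1*, and 2 to 4 of the 9 stayed under 1 CPM in each group. *Fgf23* was at 0 on all 4 days and *Sost* and *Mepe* were at 0 on day 1. In bulk RNA, fewer cells expressing a gene and less RNA per cell cannot be told apart.

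During differentiation *Grin2c* was the subunit gene that rose throughout. It stood at 0.590 and 0.565 CPM in the 2 libraries of day 1, 3.84 and 4.01 on day 7, 6.60 and 5.67 on day 10, and 8.31 and 8.47 on day 14. No day overlapped with another, and every library of a later day was higher than every library of an earlier one. Mean CPM was 6.80 times the day 1 value on day 7, 10.6 times on day 10 and 14.5 times on day 14. Tests used log2(CPM + 1), on which a weakly expressed gene changes by less than its ratio of CPM. The log2 fold change (Log2FC) against day 1 was 1.64 on day 7 (limma adjusted p = 3.5e-12), 2.17 on day 10 (8.1e-15) and 2.57 on day 14 (1.6e-16), each with a standard error (SE) of 0.12. A gene was called when its Benjamini-Hochberg adjusted p was below 0.01 and its Log2FC above 1 or below -1. The steps from day 7 to day 10 (Log2FC 0.53, adjusted p = 4.2e-04) and from day 10 to day 14 (0.40, 0.0051) were smaller and did not reach a Log2FC of 1.

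*Grin2c* lies at chr11:115139992-115158525 on the minus strand (GRCm39, GENCODE M39), where 2 coding transcripts are annotated, *Grin2c-201* of 4279 bases and *Grin2c-202* of 4895 bases. Their starts lie apart, at 115156255 and 115158525, and the window below was not matched to either. RefSeq's window from 250 bases before to 50 after its start of the gene is shown because *Grin2c* had the largest Log2FC of the members on log2(CPM + 1). It lies at chr11:115267194-115267493, minus strand, on GRCm38.p6, and GC boxes (GGGCGG, searched on both strands) are in capitals.
Grin2c RefSeq start: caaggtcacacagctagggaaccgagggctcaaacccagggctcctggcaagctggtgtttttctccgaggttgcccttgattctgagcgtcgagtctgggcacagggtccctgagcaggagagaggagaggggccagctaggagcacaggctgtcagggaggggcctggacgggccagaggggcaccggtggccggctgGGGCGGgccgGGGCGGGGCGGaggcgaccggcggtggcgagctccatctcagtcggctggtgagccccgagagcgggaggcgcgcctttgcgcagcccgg
The RefSeq window holds 3 GC boxes, 50, 40 and 35 bases before the start, and 35.7% of the 32851 RefSeq promoter windows of this length hold at least 1. The *Grin2c* window does not hold the letters of an AP-1 site (TGANTCA), a hypoxia element core (ACGTG) or a C/EBP-ATF element (TGATGNAA).

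*Grin2d*, the other GluN2 gene with reads at every day, had the highest CPM per kb of the authors' gene length among the subunits at all 4 days. It did not follow *Grin2c*. It was at 14.9 and 16.2 CPM on day 1, 13.7 and 14.7 on day 7, 20.2 and 23.0 on day 10, and 11.2 and 10.2 on day 14. Day 10 was the highest and day 14 the lowest, and neither overlapped with day 1. Against day 1 the Log2FC was 0.45 on day 10 (limma adjusted p = 5.7e-05) and -0.50 on day 14 (1.3e-05), and from day 10 to day 14 it was -0.95 (SE 0.09, adjusted p = 7.0e-10), just short of a call. This last step was called with a pseudocount of 0.1 (-1.003), without replicate 1 of day 10 (-1.03) and without replicate 1 of day 14 (-1.01).

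*Grin1*, the subunit every NMDA receptor needs, was close to absent until day 14. It had 1 read in each library of day 1, 2 and 3 reads on day 7, 1 and 0 on day 10, and 32 and 34 on day 14, which is 0.933 and 1.24 CPM. Both libraries of day 14 were above every earlier library. The mean on day 14 was 35.6 times that of day 1, with an exact 95% interval of 9.34 to 296 that covers counting error only, since day 1 holds 2 reads in all. *Grin1* was called higher on day 14 against day 1 (Log2FC 1.01, SE 0.16, limma adjusted p = 3.1e-06) and against day 10 (1.03, adjusted p = 4.1e-06). It entered the test only through 1 library of day 14, the one above 1 CPM, so it could hardly have been tested without being higher there, and with that library left out it was not tested. Of its exon bases 11.8% are shared with the long noncoding RNA *Grin1os* on the opposite strand, and the sources used here do not say whether reads were counted by strand.

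*Grin3b* went down, up and down again. It was at 2.89 and 2.67 CPM on day 1, 0.900 and 1.44 on day 7, 4.10 and 3.48 on day 10, and 1.14 and 1.05 on day 14. Days 1 and 10 stood above days 7 and 14 without overlap. The rise from day 7 to day 10 (Log2FC 1.15, SE 0.14, limma adjusted p = 1.6e-07) and the fall from day 10 to day 14 (-1.19, adjusted p = 7.2e-08) were called. Without replicate 1 of day 7 the rise was 0.97 and was no longer called. Against day 1 the Log2FC of -0.81 on day 7 and -0.85 on day 14 fell short of a call, which edgeR on the recovered reads gave (-1.22 and -1.30). *Grin3b* shares 1059 of its 3296 exon bases (32.1%) with *Tmem259* on the opposite strand, and *Tmem259* was at 115 to 117 CPM on day 1, 136 on day 7, 139 to 142 on day 10 and 101 to 107 on day 14. Its part in the *Grin3b* values was not tested.

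*Grin2a* and *Grin2b*, the GluN2 genes best known from the forebrain, were not detected in a way that could be compared. *Grin2a* had 0 reads in 250823570 reads over the 8 libraries, which allows up to 0.0120 CPM, and *Grin2b* had 2 reads, both in replicate 2 of day 14. Both were below the filter of a CPM above 1 in at least 1 library, which the other 8 members passed.

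Of the transporters, *Slc1a5* fell most. It was at 156 and 161 CPM on day 1, 162 and 159 on day 7, 137 and 129 on day 10, and 79.5 and 69.3 on day 14. Days 1 and 7 overlapped, and days 10 and 14 each lay below all earlier libraries. By day 14 mean CPM was 0.469 times that of day 1 (Log2FC -1.09, SE 0.05, limma adjusted p = 1.1e-16), a fall that was called. Most of it fell between days 10 and 14 (Log2FC -0.83, adjusted p = 1.6e-13), after a smaller step between days 7 and 10 (-0.27, adjusted p = 3.7e-05). Without replicate 2 of day 14, the lower of the pair, the Log2FC against day 1 was -0.99 with an adjusted p of 5.4e-14, so the call was lost by its size alone.

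*Slc1a4*, its relative for serine and alanine, dipped and then rose. Its libraries were at 67.6 and 65.9 CPM on day 1, 62.1 and 60.7 on day 7, 57.3 and 56.1 on day 10, and 76.9 and 74.3 on day 14. Day 14 was above and day 10 below all other libraries. The changes were small, with a Log2FC of -0.23 on day 10 against day 1 (limma adjusted p = 8.0e-05), 0.18 on day 14 against day 1 (0.0013) and 0.41 from day 10 to day 14 (2.9e-08). The fall of *Slc1a5* and the late rise of *Slc1a4* brought the pair closer together per kilobase of the authors' gene length. They were at 14.2 ± 1.37 against 12.2 ± 0.30 CPM per kb on day 14 (SD, n = 2), from 30.2 ± 0.73 against 10.7 ± 0.19 on day 1. The gene lengths are 5254 and 6213 bases, and the transcripts with most counts in the sorted cells have 2807 (*Slc1a5-202*) and 3872 (*Slc1a4-201*). The size of the gap depends on the length used.

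*Slc1a3*, the glial glutamate transporter GLAST, was lowest on day 14. It was at 38.0 and 35.8 CPM on day 1, 32.7 and 31.4 on day 7, 32.7 and 34.7 on day 10, and 24.3 and 26.3 on day 14. Only day 14 stood below all other libraries. Its Log2FC against day 1 was -0.20 on day 7 (limma adjusted p = 0.0078), -0.13 on day 10 (0.076) and -0.53 on day 14 (SE 0.06, 4.0e-08), and it was called on no day.

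*Slc1a1*, which transports glutamate, aspartate and cysteine, went from no reads to a low level. It had 0 reads in both libraries of day 1, 0.150 and 0.106 CPM on day 7, 0.197 and 0.258 on day 10, and 1.46 and 0.799 on day 14. Each day lay above the day before without overlap, although the pair of day 14 was wide. The mean of day 14 was at least 24.7 times the 0.0456 CPM that 3 reads over both day 1 libraries would give. The call on day 14 (Log2FC 1.07, SE 0.17, limma adjusted p = 2.8e-06) comes with the same limit as that of *Grin1*, since only replicate 1 of day 14 exceeded 1 CPM.

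In all, 1 of the 8 members tested was called on day 7 against day 1 (*Grin2c*), where 9.11% of the 12725 genes tested were called, and 1 on day 10 (*Grin2c*), where 10.5% were. At day 14 the calls were 4 (*Grin1*, *Grin2c* and *Slc1a1* higher, *Slc1a5* lower), where 13.4% of genes were called (7.51% higher and 5.9% lower), and *Grin1* and *Slc1a1* are among the 4 through the filter described above, which *Grin2c* passed on days 7, 10 and 14. From day 7 to day 10 the count was 1 (*Grin3b*), against 2.22% of all genes, and from day 10 to day 14 it was 2 (*Grin1*, with the same limit of the filter, and *Grin3b*), against 2.96%. The 3 comparisons with day 1 share its 2 libraries. Between days 1 and 14 the libraries did not overlap for 8 of the 10 members, 4 of them above and 4 below. These are the 8 members tested, *Grin1* and *Slc1a1* through day 14 alone. With 2 libraries a day the same held for 87.1% of all genes tested.

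**Figure D1:**
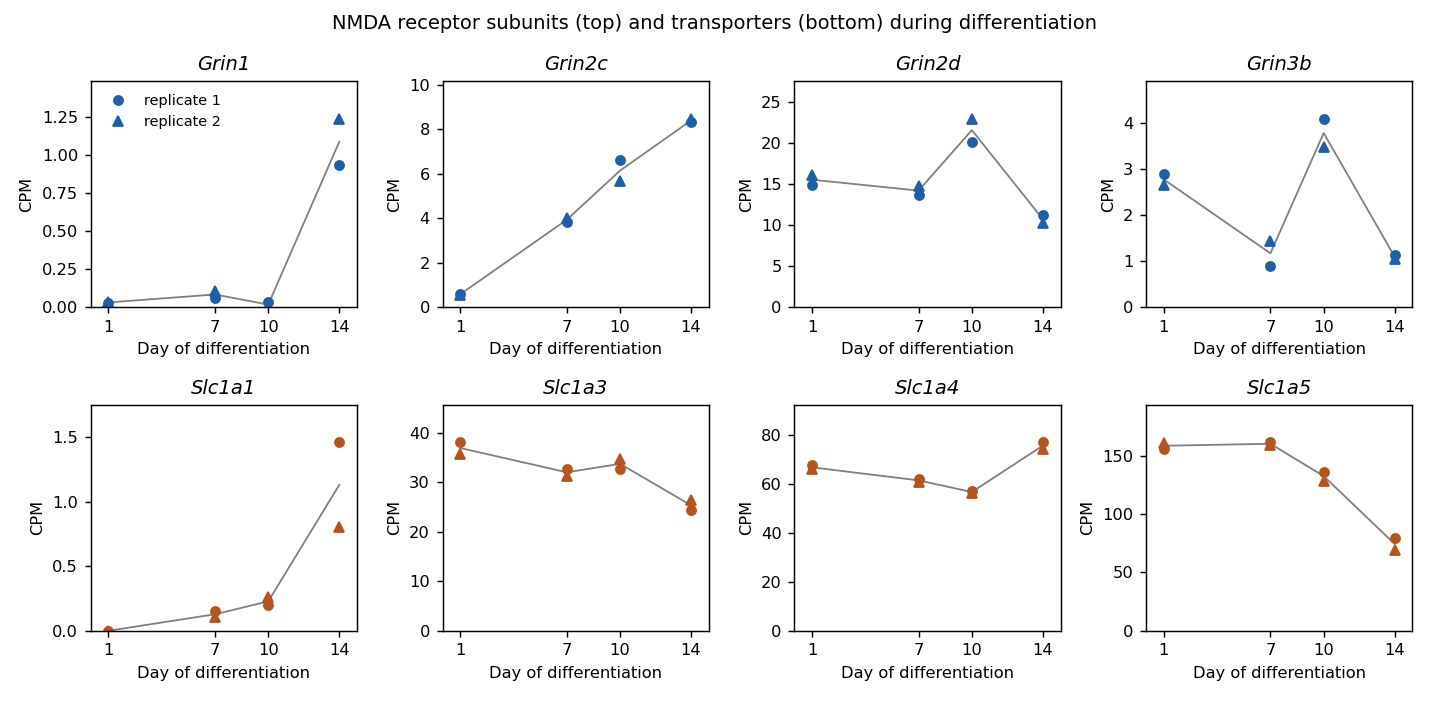
CPM (y axis, linear and from 0, a scale for each gene) against day of differentiation (x axis) for the 8 members above the filter, NMDA receptor subunits in the top row and transporters in the bottom row; circles and triangles are replicates 1 and 2 and lines join the means of 2 replicates. *Grin2c* climbs from 0.577 to 8.39 CPM on average, *Grin1* leaves the floor only on day 14, *Slc1a1* climbs from 0 to 1.13 CPM, and *Slc1a5* falls from 159 to 74.4 CPM.

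Per length, the transporters as a sum outweighed the receptor subunits on every day. By the authors' gene lengths the order on day 14 was *Slc1a5*, *Slc1a4*, *Slc1a3* (2.62 CPM per kb), *Grin2d* (2.02), *Grin2c* (1.67), *Grin3b* (0.333), *Slc1a1* (0.176) and *Grin1* (0.139), where only the libraries of *Slc1a1* and *Grin1* overlapped. These lengths differ from those of the main transcripts in the sorted cells. They are 5021 bases for *Grin2c*, where *Grin2c-201* has 4279, and 5312 for *Grin2d*, where *Grin2d-201* has 5431. The order of near neighbours, *Grin2d* and *Grin2c* on day 14 among them, therefore depends on the length used. At day 1 *Grin2c* had been at 0.115 CPM per kb, below *Grin3b* at 0.846. The summed level of the 6 subunits was 3.81 to 3.97 CPM per kb on day 1, 3.63 to 4.03 on day 7, 6.37 to 6.52 on day 10 and 4.09 to 4.24 on day 14. Within that sum the share of *Grin2c* went from 2.83% to 3.08% on day 1 to 39.04% to 41.2% on day 14, and that of *Grin2d* from 73.7% to 76.7% down to 47.0% to 49.97%. *Grin1* made up 2.83% to 3.88% of the subunit sum on day 14 and at most 0.34% before. The sum of the 4 transporters fell from 44.5 to 45.0 CPM per kb on day 1 to 28.0 to 30.3 on day 14.

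**Figure D2:**
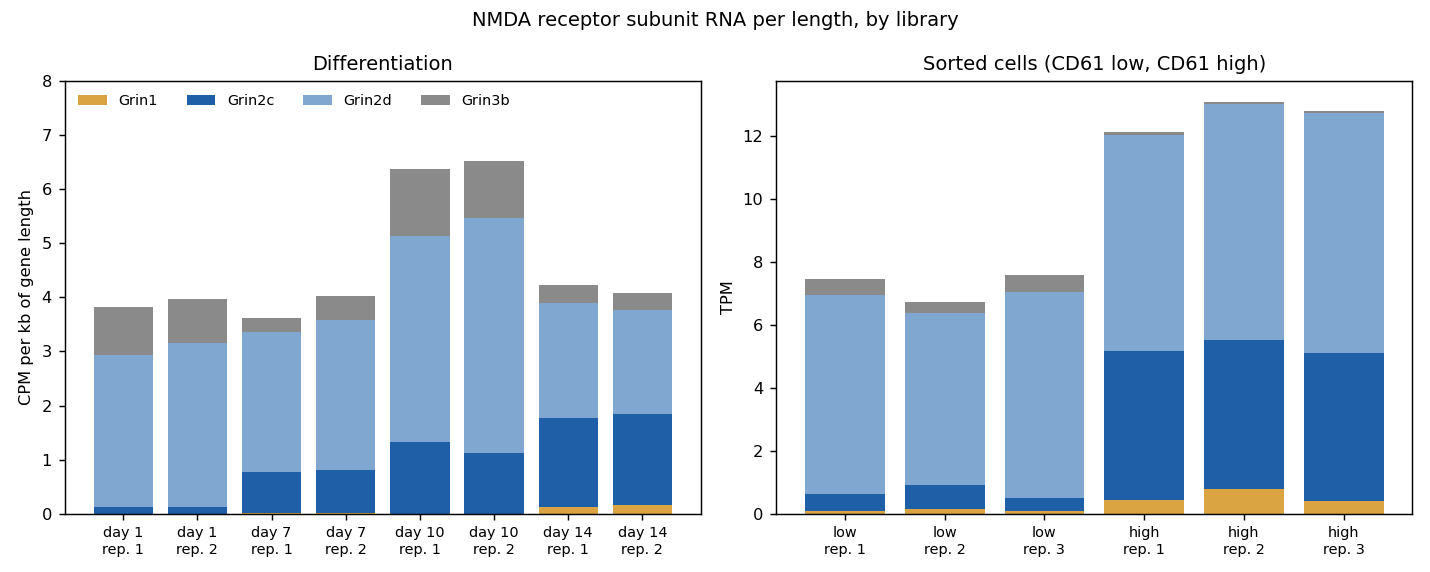
Stacked level of NMDA receptor subunit transcripts per length in each library (x axis), as CPM per kb of gene length for the differentiation libraries (left) and as length-corrected transcript abundance (TPM) for the sorted libraries (right); the 2 scales come from separate quantifications and are not comparable, and *Grin2a* and *Grin2b* are too low to be seen. *Grin2c* (dark blue) grows beside *Grin2d* (light blue) to 39.04% to 41.2% of the day 14 bars and 36.2% to 39.1% of the CD61 high bars.

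The genes whose CPM most resembled *Grin2c* over the 8 libraries, by Pearson's r among the 10313 genes tested that averaged 5 CPM or more, were *Zfand2b*, *Frmd5*, *Usf2*, *Adssl1* and *Dag1*, all with r between 0.998 and 0.999. The pattern was a common one, since 528 genes had r above 0.95. For *Slc1a5* the nearest included *Cluh*, *Spata5*, *Bmp1* and *Eif3a*, with r between 0.987 and 0.992, and 125 of 10312 genes passed 0.95. These correlations describe 4 days of 2 libraries each.

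In the sorted cells *Grin2c*, the gene for which the members were chosen, was higher in CD61 high. After TMM scaling the CD61 low libraries held 1.29, 1.74 and 0.879 CPM of it, and the CD61 high libraries 13.0, 14.0 and 13.1, from 18 to 37 estimated counts per library in the former and 222 to 243 in the latter. Every CD61 high library was above every CD61 low library. The mean was 10.3 times higher (1.30 ± 0.43 against 13.4 ± 0.53, SD, n = 3), a Log2FC of 3.35 with an SE of 0.21.

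*Grin2d* was also higher in CD61 high, at 25.9, 29.4 and 29.1 CPM against 19.9, 16.8 and 19.7 (Log2FC 0.58). *Grin1* was at 1.11, 1.44 and 1.00 CPM against 0.144, 0.282 and 0.195, from 17 to 25 estimated counts against 3 to 6, and had too few counts in CD61 low for the filter. Thus the 3 subunit genes *Grin1*, *Grin2c* and *Grin2d* lay higher in CD61 high without overlap. *Grin3b* went the other way, with 1 estimated count in each CD61 high library against 17, 5 and 7 in CD61 low, while *Tmem259* overlapped between the groups at 123 to 131 CPM in CD61 low and 124 to 161 in CD61 high. *Grin2a* had no counts in any of the 6 libraries and *Grin2b* had 2, both in CD61 low replicate 2.

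The 3 transporters above the filter were lower in CD61 high. *Slc1a5* was at 78.0, 81.1 and 89.6 CPM in CD61 high against 147, 152 and 136 in CD61 low (Log2FC -0.81), and *Slc1a4* at 48.8, 51.1 and 53.1 against 69.8, 69.0 and 68.3 (-0.44). *Slc1a3* was at 6.16, 6.33 and 9.06 CPM against 10.9, 10.7 and 9.96 (-0.55), and CD61 high replicate 3 came close to the CD61 low libraries. None of the 3 overlapped between the groups. *Slc1a1*, present on day 14 of the time course, had 7 estimated counts over the 6 sorted libraries, at most 3 in any of them. Over the 10 members, 3 were above and 4 below without overlap and 3 overlapped. Of the 12077 genes above the filter, among them 5 members, 58% did not overlap. *Grin1* and *Grin3b*, which did not overlap, were below that filter. Both lists of values depend on scaling: TMM factors were 1.10 to 1.13 for CD61 low and 0.895 to 0.909 for CD61 high, and with library size alone the median Log2FC of all genes moved from 0.00 to -0.30, *Grin2c* to 3.05, *Grin2d* to 0.28 and *Slc1a5* to -1.11. Of 7 macrophage and osteoclast markers, *Cd68* was lower in CD61 high (146, 148 and 121 estimated counts against 315, 260 and 314), and the other 6 were under 1 CPM in every sorted library, with *Adgre1* and *Ocstamp* at 0 throughout. The list summed to 14.3 to 17.2 CPM in CD61 low and 7.28 to 8.09 in CD61 high, nearly all of it *Cd68*, and its part in the members' values was not tested.

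**Figure D3:**
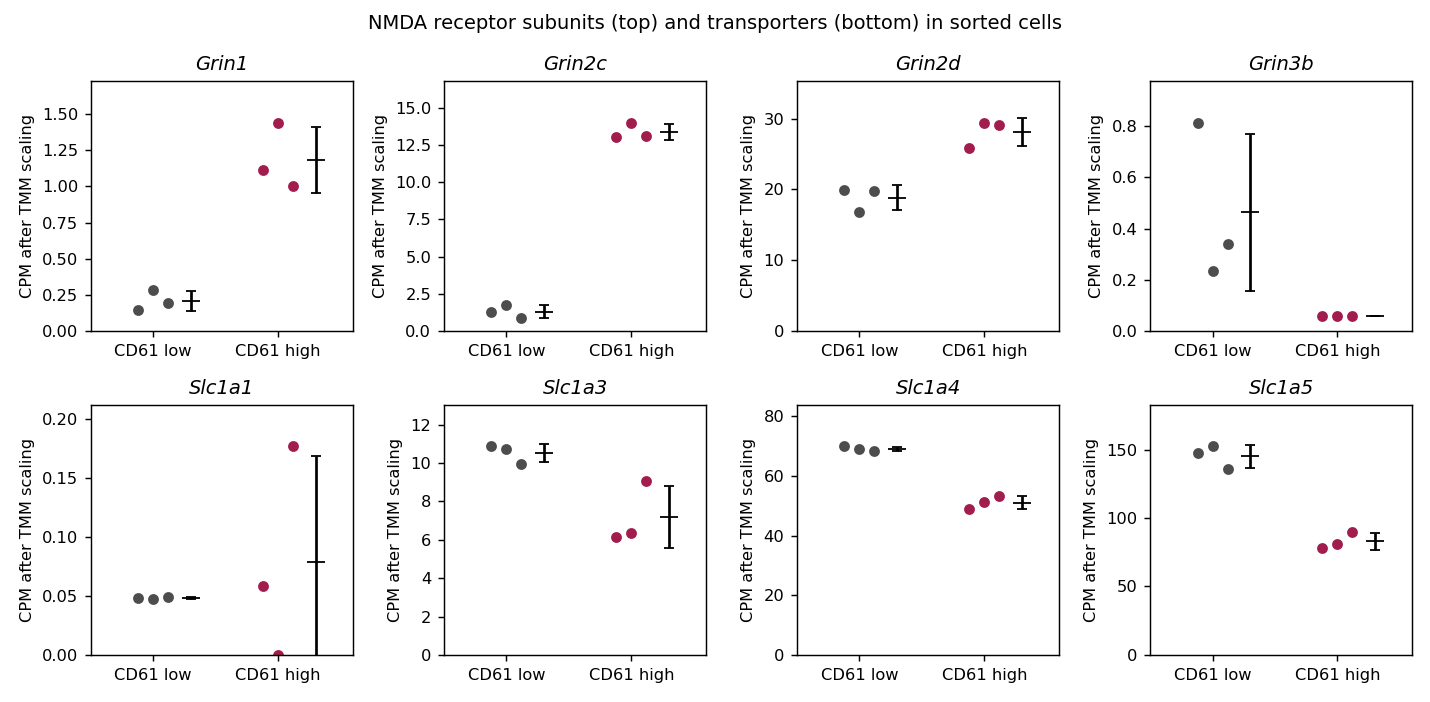
CPM after TMM scaling (y axis, linear and from 0, a scale for each gene) in the 3 CD61 low and 3 CD61 high libraries for the same 8 genes; points are replicates 1 to 3 from left to right, and the bar beside them is the mean ± SD (n = 3), cut at 0 for *Slc1a1*. *Grin1*, *Grin2c* and *Grin2d* are higher in every CD61 high library, and *Grin3b*, *Slc1a3*, *Slc1a4* and *Slc1a5* lower.

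By TPM, which is corrected for transcript length, *Grin2c* was close to *Grin3b* in CD61 low (0.580 ± 0.182 TPM, overlapping it) and stood in CD61 high at 4.74 ± 0.01 TPM, above *Slc1a3* (3.12 ± 0.78) and below *Grin2d* (7.34 ± 0.41; SD, n = 3). The 6 subunits summed to 6.76 to 7.59 TPM in CD61 low and 12.1 to 13.1 in CD61 high. *Grin2c* made up 5.33% to 11.4% of that sum in CD61 low and 36.2% to 39.1% in CD61 high. *Grin1* stayed at 5.90% of the subunit sum or less in every sorted library. The 4 transporters summed to 150 to 166 TPM in CD61 low and 72.9 to 80.7 in CD61 high, with *Slc1a5* at 66.4% to 75.5% of the sum throughout.

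Estimates per transcript were available for the sorted cells. *Grin2c-201* carried 65.4% to 80.3% of the *Grin2c* counts in the CD61 high libraries and all of them in CD61 low replicates 1 and 3. *Grin2c-202* had 44.3, 84.2 and 44.0 estimated counts in the CD61 high libraries and 0, 4.99 and 0 in the CD61 low libraries, so both transcripts were higher in CD61 high. For *Slc1a5*, on chr7:16515265-16532731 of the plus strand, most counts fell on a transcript that is annotated as retaining an intron: *Slc1a5-202* took 83.3% to 94.8% of the gene's counts, and the only coding transcript, *Slc1a5-201*, took 1.04% to 13.0%. The 2 transcripts are close in length (2807 and 2764 bases), and the division between them is Salmon's estimate. All 7 counts of *Slc1a1* fell on transcripts annotated with a retained intron and none on the coding one.

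**Figure D4:**
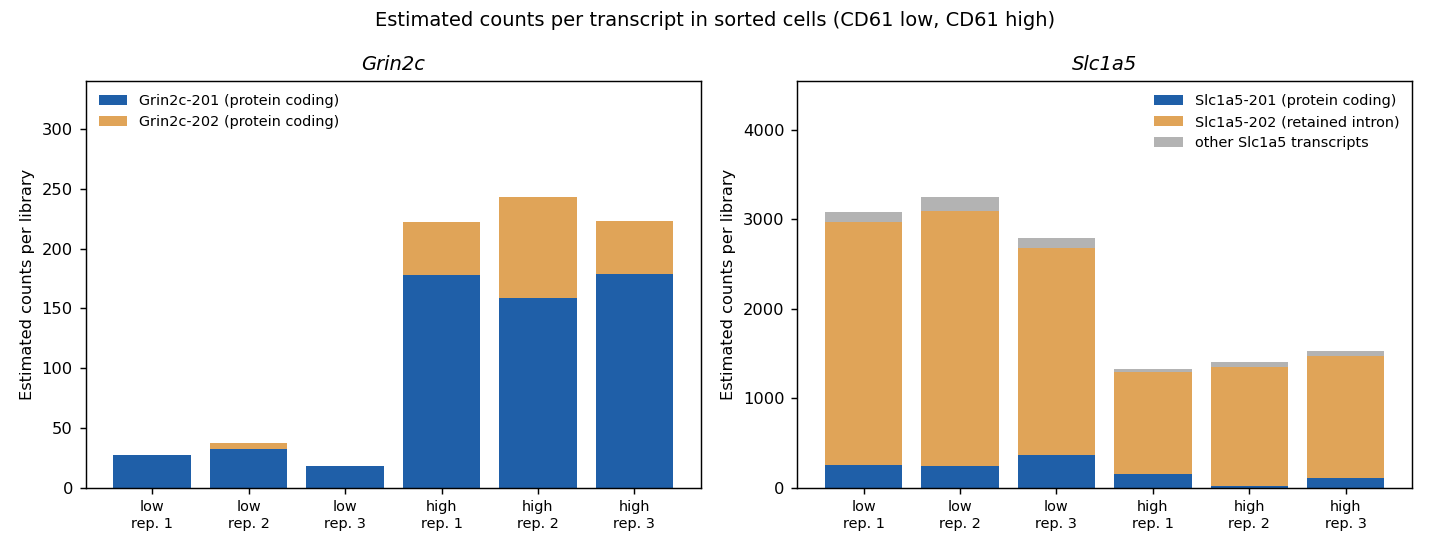
Estimated counts per library (y axis, linear and from 0) for the transcripts of *Grin2c* (left) and *Slc1a5* (right) in the 3 CD61 low and 3 CD61 high libraries (x axis). Both *Grin2c* transcripts are higher in CD61 high, and *Slc1a5-202*, annotated as a retained intron, forms 83.3% to 94.8% of every *Slc1a5* bar.

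RefSeq promoter windows were matched for 7 of the 10 members, *Grin1*, *Grin2c*, *Grin2d*, *Grin3b*, *Slc1a1*, *Slc1a3* and *Slc1a4*; *Grin2a*, *Grin2b* and *Slc1a5* had none. Of these 7, *Slc1a4* was the one with a C/EBP-ATF element, the composite site used by ATF4 at genes of amino acid supply, which is why it is shown. The element (TGATGNAA, searched on both strands) is in capitals and begins 4 bases before the start, in the window chr11:20332664-20332963, minus strand, GRCm38.p6.
Slc1a4 RefSeq start: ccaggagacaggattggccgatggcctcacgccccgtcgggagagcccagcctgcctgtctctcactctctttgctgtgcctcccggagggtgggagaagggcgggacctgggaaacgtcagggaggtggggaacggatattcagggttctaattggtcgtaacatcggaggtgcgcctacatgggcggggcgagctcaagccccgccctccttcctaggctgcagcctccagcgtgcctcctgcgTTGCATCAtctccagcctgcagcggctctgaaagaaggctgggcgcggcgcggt
The letters of this element occur in 3.97% of all RefSeq windows. Of the other glutamate genes described next, they were found for *Asns* and *Got1* among 15 matched enzymes, *Slc7a11* among 8 transporters, *Grm7* among 11 receptors and for none of 19 scaffolds and kinases. Among the members, the GC box (35.7% of all windows) was found for *Grin1*, *Slc1a1*, *Slc1a3* and *Slc1a4* as well as *Grin2c*, the hypoxia element core (19.6%) for *Grin1* and *Slc1a3*, and the AP-1 site (7.81%) for *Grin3b*.

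A further 73 genes of glutamate signalling and metabolism were examined around the members: 21 other receptor genes, 8 other transporters, 19 enzymes of glutamate, glutamine and serine metabolism, and 25 receptor scaffolds and kinases. Of the 21 receptors only *Grik3*, *Grik5* and *Grina* passed the filter in the time course. No AMPA receptor gene (*Gria1* to *Gria4*) had a count in the sorted cells, nor did *Grin3a*, which allows up to 0.0263 CPM over the 6 libraries. *Grik3*, a kainate receptor subunit, was called lower on days 7, 10 and 14, from a mean of 4.05 CPM on day 1 to 0.411 on day 14 (Log2FC -1.84, SE 0.14, limma adjusted p = 6.6e-12).

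The scaffolds and kinases that hold or regulate NMDA receptors had 7 calls among 19 genes tested on day 14 against day 1 (36.8%, where 13.4% of all genes were called), with 5 higher and 2 lower and a median Log2FC of 0.25 where that of all genes was -0.03. Of the 7 calls, 3 were of genes that exceeded 1 CPM on only 1 day, the one on which they were highest (*Nos1* and *Shank2* on day 1, *Homer2* on day 14), so they carry the same limit of the filter as *Grin1* and the share is not read against the background. *Fyn*, a kinase that phosphorylates GluN2 subunits, went from 77.2 and 78.2 CPM on day 1 to 239 and 249 on day 14 (Log2FC 1.64, SE 0.04, limma adjusted p = 1.5e-22). *Dlg4*, which encodes the postsynaptic scaffold PSD-95, went from 22.3 and 21.8 to 51.1 and 57.2 CPM (1.26, adjusted p = 5.2e-16). *Camk2b* also rose. Of the 3 genes under that limit, *Nos1* was at 3.81 and 3.95 CPM on day 1 and 0.175 and 0.0727 on day 14, *Shank2* at 3.54 and 3.01 and then 0.321 and 0.145, and *Homer2* at 0.0295 and 0 and then 1.66 and 1.24. Over all 73 genes, 44 were tested, and the calls against day 1 were 4 on day 7 (9.09%, beside 9.11% of all genes), 9 on day 10 (20.5%, beside 10.5%) and 8 on day 14 (18.2%, beside 13.4%), of which 2, 2 and 3 were of those 3 genes. At day 10 they included *Grina* and the vesicular glutamate transporter *Slc17a7* (both higher) and *Slc1a6* (lower, from 4.22 and 4.11 CPM to 0.525 and 0.290), which was back at 2.13 and 2.07 CPM by day 14.

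In the sort, 17 of the 18 enzymes tested had a Log2FC below 0 in CD61 high, as did 49.7% of all genes tested. Of the 17, 12 had an edgeR adjusted p below 0.01, where 16% of all genes were lower at that threshold, and the median was -0.52 where that of all genes was 0.00. Called lower were *Psph* (46.4 ± 5.78 against 18.3 ± 3.01 CPM in CD61 low and CD61 high, SD, n = 3, Log2FC -1.34, edgeR adjusted p = 2.1e-05) and *Phgdh* (-1.01, adjusted p = 1.3e-05) of serine synthesis and the alanine aminotransferase *Gpt2* (-1.01, adjusted p = 5.4e-06). *Phgdh* and *Gpt2* lie at the edge of the threshold. The call of *Phgdh* was lost without CD61 high replicate 1, CD61 low replicate 1 or CD61 low replicate 2 (-0.95 to -0.99), and that of *Gpt2* without CD61 high replicate 1, CD61 high replicate 2 or CD61 low replicate 2 (-0.97 to -0.998). *Psat1*, the remaining enzyme of serine synthesis, was higher in CD61 high, at 324 to 353 CPM against 249 to 254 (0.43, adjusted p = 3.7e-04). The 3 genes of serine synthesis therefore did not share a direction.

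The largest Log2FC among the 39 of these genes tested in the sort was that of *Slc7a11*, the cystine-glutamate exchanger, which was at 14.2, 15.9 and 20.4 CPM in CD61 low and 2.58, 1.67 and 2.00 in CD61 high (Log2FC -3.01, SE 0.20, edgeR adjusted p = 1.6e-06). Its partner chain *Slc3a2* was lower as well (-0.48, adjusted p = 0.0017). On the receptor side *Grik5* was higher in CD61 high (0.73, adjusted p = 1.4e-05), short of a call, and *Grina*, the other receptor tested, was at -0.15 (0.16). The scaffold gene *Shank1* was called higher (2.27 ± 0.46 against 6.21 ± 0.69 CPM, Log2FC 1.45, adjusted p = 2.0e-04). It was the 1 call among 16 scaffolds and kinases tested, of which 10 had a Log2FC above 0 and 6 below. Among those 6 were *Shank2* (-1.23, adjusted p = 0.015) and the kinase *Src* (-0.71, 1.1e-04), neither of them called. *Slc1a6*, below the filter, had 34, 56 and 42 estimated counts in CD61 low and 1, 1 and 2 in CD61 high. In total 5 of the 39 genes tested were called (12.8%, beside 9.22% of all genes), 1 higher and 4 lower. During differentiation the same enzymes had a median Log2FC of -0.27 on day 14 against day 1, none called, and *Slc7a11* went from 14.7 and 13.0 to 7.52 and 5.67 CPM.

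**Figure D5:**
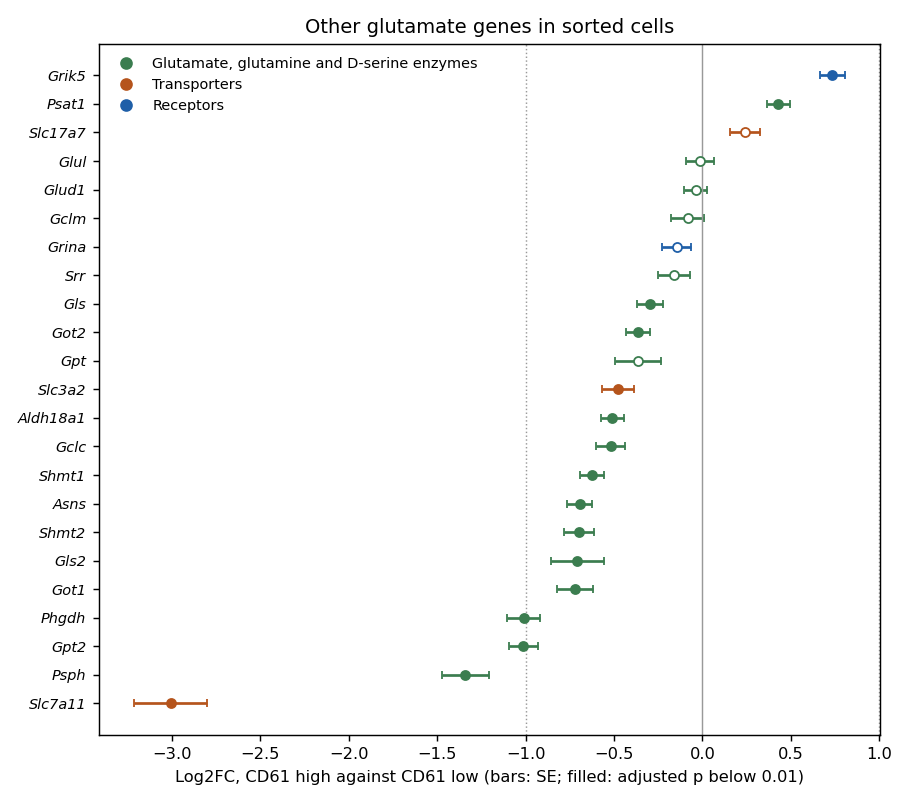
Log2FC between CD61 high and CD61 low (x axis, positive is higher in CD61 high) for the other receptor, transporter and enzyme genes tested in the sort (y axis, 1 gene a row); points are edgeR estimates from 3 libraries a group, bars are SE, filled points have an adjusted p below 0.01 and dotted lines mark -1 and 1. Of the 18 enzymes (green) 17 lie left of 0, *Psat1* lies right of it, and *Slc7a11* is farthest left at -3.01.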

How the data were processed

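The 10 members, the lists of other glutamate genes and the markers were chosen with earlier results of these data known. For the differentiation libraries the authors used STAR and HTSeq-count, and the deposited values are CPM of 39179 genes; strand use and tool versions are not given in the sources used here, and the submitters' notes name GRCm39. All CPM values were whole multiples of 1 read within 0.01, so reads could be recovered. The authors' gene lengths, in bases as deposited in the same table, gave CPM per kb. For the sorted libraries the authors ran Salmon on the GRCm39 transcriptome (release 104) and deposited estimated counts and TPM per transcript, with effective lengths. Of 116747 transcripts, 115556 (at least 99.3% of counts) were matched to GENCODE M39; gene sums of the estimated counts, rounded, entered the test. No column of per-sample values was left unused.

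Log2(CPM + 1) was fitted by day with limma 3.58.1 (trend) where any of the 8 libraries exceeded 1 CPM. Sorted counts were fitted with edgeR 4.0.16 (quasi-likelihood, TMM over all genes) where no library fell below 5 normalized counts, in R 4.3.3; p-values were Benjamini-Hochberg adjusted over all genes tested. Both were tested on simulated data. The study's methods call the replicates of a day biologic duplicates and trace the sorted replicates to 3 independent groups of cells. The text names all members, every other glutamate gene called, and the 5 genes most like *Grin2c* and the transporter with the largest Log2FC at day 14 by size. *Grik5*, *Psat1*, *Slc3a2* and *Src* were chosen after their values were seen. The 2 experiments were quantified separately and were not compared by level. Sequences are from RefSeq (GRCm38.p6). Some items that these rules name are not reported here. Alternatives were another pseudocount, other filters and scalings, count tests (edgeR on recovered reads, DESeq2 1.42.0), a length offset, a fit on 4 libraries, a replicate block and leaving out each library.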

Additional observations from a re-analysis of the deposited data

How the results depend on the processing

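*Grin2c* kept its rise and its call at days 7, 10 and 14 against day 1 in every alternative that tested it; a mean of at least 5 CPM removes it. That filter leaves 4 members, with 0 called at days 7 and 10, 1 at day 14 (*Slc1a5*), and 0 from day 7 to 10 and from day 10 to 14. It gives 0, 4 and 3 other glutamate genes on days 7, 10 and 14. Of the 10313 genes it leaves, 479 were called higher and 428 lower at day 7. The counts were 614 and 412 at day 10, and 709 and 572 at day 14. From day 7 to 10 they were 138 and 81, and from day 10 to 14 they were 196 and 88. A pseudocount of 0.1 gave 2 members at day 7 (with *Grin3b*), 2 at day 10 (with *Slc1a1*) and 4 from day 10 to 14. Over all 12725 genes it called 833 higher and 792 lower at day 7, against 571 and 588 with log2(CPM + 1). At day 10 it called 1090 higher and 737 lower, against 771 and 563. EdgeR on the recovered reads gave 2 members at days 7 and 10 and 7 other glutamate genes at day 7. Over all genes it called 876 higher and 767 lower at day 7, and 1079 and 779 at day 10. It gave 550 calls from day 7 to 10 against 282, and 731 from day 10 to 14 against 377. A pseudocount of 0.1 gave 552 and 671 for those steps. TMM scaling split the calls from day 7 to 10 into 145 higher and 127 lower against 182 and 100.

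In the sort, where the members are described without a test, library size alone gave 9 other glutamate genes called. Over all genes it gave a split of 314 higher and 981 lower against 585 and 528. No filter gave 8 other glutamate genes, with 607 higher and 715 lower over all 17853 genes. For the transporters and *Grin2d* library size alone moved the Log2FC by more than the SD of log2 CPM between replicates, pooled over both groups, to -1.11 (*Slc1a5*), -0.85 (*Slc1a3*), -0.74 (*Slc1a4*) and 0.28 (*Grin2d*). The Log2FC of *Grin2c* lay between 3.05 and 3.61 over 14 alternatives.

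With each library left out in turn, members called ranged from 1 to 1 at days 7 and 10, from 2 to 4 at day 14, from 0 to 1 from day 7 to 10 and from 2 to 3 from day 10 to 14 (with *Grin2d* without replicate 1 of day 10 or of day 14), and other glutamate genes called in the sort from 3 to 5. Without replicate 2 of day 14 the calls were 2, and without replicate 1 of day 7 they were 0. Without CD61 high replicate 1 or CD61 low replicate 2 the other glutamate genes were 3. Near 0, *Slc1a5* at day 7 ranged from -0.0094 (without replicate 1 of day 1) to 0.040 against day 1, and *Grin1* at day 10 from -0.043 to 0.0033 (without replicate 2 of day 10).

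The replicate numbers gave no clear pairing of the libraries. Deviations of same-numbered libraries correlated at -0.32, 0.22 and -0.06 in the sort and at -0.03 to 0.06 in the time course. Sorted libraries of unlike number correlated at -0.41 to 0.47. By the paper's methods both gates were taken from 3 independent groups of cells, so a pairing by culture that the numbers do not show is possible. The main fit of the sort did not model it. The fit with the replicate block gave 4 members called at day 14, as without it. Over all genes in the sort it gave 574 higher and 509 lower, against 585 and 528 without the block. Depth limits *Grin1*, *Grin2b* and *Slc1a1*, with 74, 2 and 94 reads over the 8 differentiation libraries.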
